A study of Mus musculus with 8 samples.

Results

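Of the 14980 genes listed in the count table, 44 were chosen by symbol as the enzymes of glycolysis, of pyruvate use and of the pentose phosphate pathway, together with the genes that sense low oxygen. They comprise 20 glycolytic genes, 10 genes that decide the fate of pyruvate, 6 pentose phosphate genes and 8 hypoxia genes. All 44 were in the table and all 44 passed the filter on low counts, which left 14184 genes for testing. The 8 libraries came from 4 male mice. From the lamina propria of the colon of each mouse, MHCII+CD64+ macrophages were sorted into a GPR35-positive and a GPR35-negative population, and low-input RNA sequencing gave 1 library of each. GPR35 is a G protein-coupled receptor. The labels give no strain, age, genotype or treatment, and by label the groups differ only in GPR35. Replicates 1 to 4 are the 4 animals, in the same order in both groups.

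Glycolysis turns glucose into pyruvate and yields ATP without oxygen. Several of its steps can be run by more than 1 isoenzyme. Pyruvate is then reduced to lactate by lactate dehydrogenase or enters mitochondria through the pyruvate dehydrogenase complex, which pyruvate dehydrogenase kinases switch off. The pentose phosphate pathway branches off at glucose 6-phosphate. Its oxidative arm makes NADPH, which feeds the oxidative burst and the antioxidant defence of macrophages, and its non-oxidative arm interconverts sugars and supplies ribose for nucleotides. When oxygen is present, prolyl hydroxylases of the EGLN family mark the transcription factor subunit HIF-1α, the VHL protein recognises the mark, and HIF-1α is degraded. Low oxygen or inflammatory signals let HIF-1α build up and switch on many glycolytic genes. The colon is a tissue with little oxygen near its lumen.

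Total counts per library lay between 33769639 and 48599893 in the GPR35-positive group and between 15996622 and 30066596 in the GPR35-negative group. Gpr35 itself was at 73.3 ± 14.9 CPM (SD, n = 4; CPM is the usual count relative to the library total, here TMM scaled) in GPR35-positive libraries and at 2.97 ± 1.46 CPM (SD, n = 4) in GPR35-negative libraries, in the direction of the labels. The libraries also differed in markers of several cell types. By edgeR, 18.5% of all genes tested were higher and 19.5% lower. The summed level of 20 macrophage markers was 47189 to 56528 CPM in GPR35-positive libraries and 5140 to 23780 CPM in GPR35-negative libraries, and 19 of the 20 were higher by edgeR. All 14 B and plasma cell markers were lower in the GPR35-positive group, with summed levels of 1248 to 2711 CPM against 74066 to 144784 CPM. Jchain, the joining chain of secreted antibodies, took 0.0589% to 0.197% of the counts of GPR35-positive libraries and 7.37% to 14.1% of those of GPR35-negative libraries. Markers of T and innate lymphoid cells were lower for 10 of 12 genes (69.1 to 84.7 against 394 to 701 CPM), and stromal, endothelial and muscle markers for 9 of 12 (231 to 1168 against 3218 to 7615 CPM). None of the macrophage or B and plasma cell markers was at 0 in any library. Epithelial markers were lower for 2 of 10 (81.5 to 148 against 208 to 653 CPM), which is near the 19.5% of all genes. Glial, neuronal and erythroid markers were lower for 4 of 9 (113 to 560 against 432 to 3222 CPM). Granulocyte and mast cell markers were higher for 1 and lower for 2 of 9 (115 to 167 against 102 to 248 CPM). Dendritic cell markers were higher for 2 of 8 (109 to 442 against 43.6 to 238 CPM). Both lists are small, and their calls were not far from the shares of all genes. The summed ranges of the glial, neuronal and erythroid, the granulocyte and mast cell, and the dendritic cell lists overlapped between the groups. Those of the other 5 did not. The part of these lists in the results below was not tested. In such bulk samples, fewer cells of a type and less RNA per cell cannot be told apart.

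The 44 genes did not all go the same way. By edgeR's quasi-likelihood test with Benjamini-Hochberg adjustment over all 14184 genes and a threshold of 0.05, 15 members (34.1%) were higher in GPR35-positive libraries, 4 (9.09%) were lower and 25 did not pass. Over all genes, 18.5% were higher and 19.5% lower. The median log2 fold change, positive minus negative, was 0.24 over the members and -0.05 over all genes. In 17 members (38.6%) every GPR35-positive library lay above every GPR35-negative library, against 21.5% of all genes, and in 5 members (11.4%) every one lay below, against 20.6%. With the animal as a block in the fit, 16 members were higher and 3 lower, against 19.4% and 20% of all genes. The number of lower members was 0 without replicate 3, 0 without replicate 4 and 2 without replicate 2. Calls over all genes fell too, from 2769 lower to 1712 without replicate 3 and 1680 without replicate 4, and the log2 fold changes of the 4 genes without replicate 3 were -2.34 for Rpia, -1.80 for Egln3, -3.84 for Pdk4 and -0.44 for Pgk1. The number of lower members was also 2 without any single library except GPR35-positive replicate 4 (3) and GPR35-negative replicate 1 (6). The number of higher members was 10 without replicate 3 and 13 without replicate 4, while higher calls over all genes fell from 2617 to 1572 and 1624.

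The calls are relative to the scaling of the libraries. Scaled to total library size alone, 10 of the 44 members were higher and 8 lower, against 1692 and 4193 of all 14184 genes. The median log2 fold change of all genes was then -0.34. When the geometric mean of the 20 macrophage markers set the scale of each library, 0 members were higher and 37 lower, against 0.606% and 83.7% of all genes, and the median log2 fold change moved to -2.23 over the members and to -2.49 over all genes. The test with that scaling asks how much of a transcript there was per macrophage marker transcript. Of the 15 members called higher with the usual scaling, only Pfkfb3 (0.29, edgeR adjusted p = 0.565) and Pfkfb4 (0.04, edgeR adjusted p = 0.931) kept a log2 fold change above 0. The other 13 had values below 0. The 4 members called lower kept that call. Every direction below is given with the usual scaling (TMM, which assumes that most genes do not change), and the directions of those 13 reverse with the macrophage marker scaling.

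**Figure D1:**
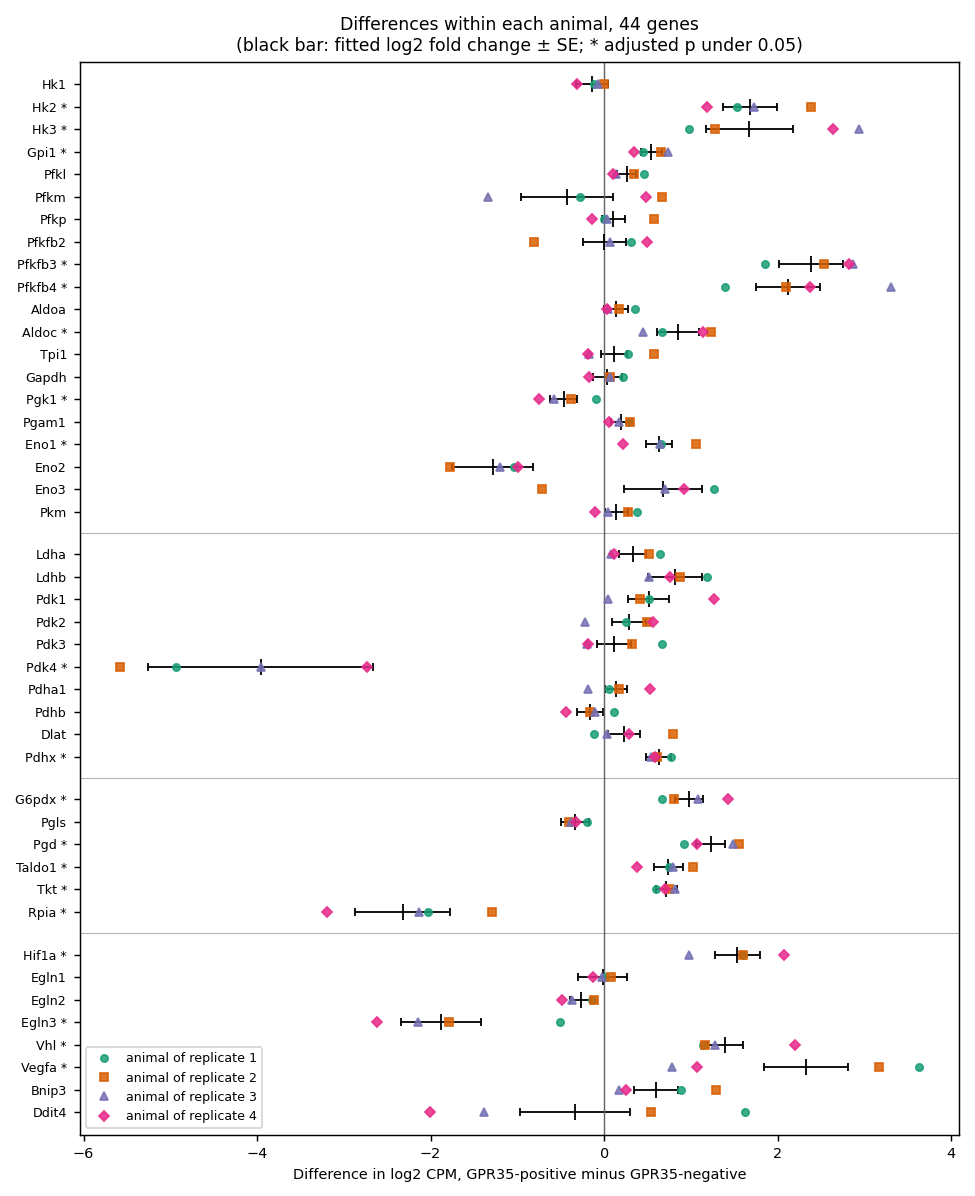
Difference in log2 CPM between the GPR35-positive and the GPR35-negative library of each animal (points, 4 per gene) for the 44 genes by pathway, with the fitted log2 fold change ± SE (black bar) and an asterisk for genes past the edgeR threshold of 0.05. The highest fitted values belong to Pfkfb3, Vegfa, Pfkfb4, Hk2 and Hk3, and the lowest to Pdk4; with libraries scaled to macrophage markers only Pfkfb3 and Pfkfb4 of the 15 higher genes stay above 0.

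The promoters of several of these genes hold the core letters ACGTG, which is the centre of the hypoxia response element that HIF-1α binds. RefSeq promoter windows of GRCm38.p6, from 250 bases before to 50 bases after the start of a transcript, matched all 44 genes and gave 63 windows. ACGTG stood on either strand in 28 of the 63 windows (44.4%), against 6447 of 32851 windows of all genes (19.6%). By gene, 24 of the 44 held it in at least 1 window, namely 7 of the 15 higher members, 2 of the 4 lower members and 15 of the 25 that did not pass. No such count by gene was made over all genes. The 32851 windows were not limited to genes tested here, so they are an unlike background. The variant GCGTG was in 38 of 63 member windows (60.3%) and in 32.4% of all windows. The palindrome CACGTG holds a match on both strands, so a window with it counts once. A match is a description of letters only. The stretches below show where the letters lie in a hexokinase and a PFKFB gene that were higher, in Hif1a itself, in Ldha, which did not pass, and in Pgk1 and Egln3, which were lower. Capitals mark ACGTG or its reverse complement CACGT, each stretch is written 5′ to 3′ on the strand of its gene, and the flanks are 20 bases.
Hk2, minus strand, chr6:82774482-82774700: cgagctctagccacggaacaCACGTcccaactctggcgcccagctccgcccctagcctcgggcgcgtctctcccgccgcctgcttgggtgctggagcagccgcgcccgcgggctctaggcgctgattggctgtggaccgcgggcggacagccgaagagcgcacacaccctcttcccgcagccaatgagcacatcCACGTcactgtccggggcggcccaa
Pfkfb3, minus strand, chr2:11502118-11502163: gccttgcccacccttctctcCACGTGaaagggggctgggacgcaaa
Hif1a, plus strand, chr12:73907712-73907821: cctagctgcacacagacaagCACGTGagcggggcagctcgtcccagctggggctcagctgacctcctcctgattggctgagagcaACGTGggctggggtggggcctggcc
Ldha, plus strand, chr7:46845639-46845794: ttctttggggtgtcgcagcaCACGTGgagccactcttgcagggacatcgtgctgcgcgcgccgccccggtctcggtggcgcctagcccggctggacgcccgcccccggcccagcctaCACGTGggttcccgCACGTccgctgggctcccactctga
Pgk1, plus strand, chrX:106186930-106186993: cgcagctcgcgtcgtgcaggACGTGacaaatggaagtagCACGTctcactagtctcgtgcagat
Egln3, minus strand, chr12:54204079-54204123: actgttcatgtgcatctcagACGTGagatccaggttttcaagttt

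Of the 20 glycolytic genes, 7 (35%) were higher, against 18.5% of all genes, and 1 (5%) was lower, against 19.5%. Hexokinases trap glucose in the cell as glucose 6-phosphate and 2 of the 3 isoenzymes were higher. Hk2, the inducible isoenzyme that binds mitochondria, was at 80, 60.5, 47.8 and 40.3 CPM in GPR35-positive replicates 1 to 4 and at 27.7, 11.5, 14.4 and 17.7 CPM in GPR35-negative replicates 1 to 4. The groups did not overlap, and replicate 1 was the highest in both. Hk2 was higher by a log2 fold change of 1.68 ± 0.31 (SE, edgeR adjusted p = 0.0036). Hk3, an isoenzyme of myeloid cells, was at 124, 66.9, 87.0 and 96.4 CPM in GPR35-positive libraries and at 62.8, 27.6, 11.3 and 15.4 CPM in GPR35-negative libraries. The groups were separate by a small gap, because GPR35-negative replicate 1 came close to GPR35-positive replicate 2. That GPR35-negative library also had the highest macrophage marker sum of its group (23780 CPM). Hk3 was higher by 1.67 ± 0.50 (SE, edgeR adjusted p = 0.0282). The edgeR adjusted p was above the threshold when the animal of replicate 2 (0.0809), 3 (0.0798) or 4 (0.123) was left out. It was also above it with single libraries left out, namely GPR35-positive replicates 1 (0.0731) and 4 (0.0607) and GPR35-negative replicates 2 (0.0715) and 4 (0.0652). Hk1, the widely expressed isoenzyme, was at 62.1 ± 9.79 against 68.4 ± 13.6 CPM (SD, n = 4) and did not pass (-0.14 ± 0.18, edgeR adjusted p = 0.577).

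The share of each isoenzyme within a step does not depend on how libraries are scaled, but it can differ with the cells a library holds. Shares were taken from counts per kb of gene length within each library. Hk3 made up 56.6%, 48.5%, 52.1% and 58.0% of the hexokinase total in GPR35-positive libraries and 48.0%, 39.6%, 15.2% and 18.6% in GPR35-negative libraries. The groups did not overlap. The difference in means was 23.4 percentage points, with an exact permutation p = 0.0286 (2-sided, n = 4 against 4), the smallest that 70 arrangements of the libraries allow, and an adjusted p of 0.114 over the 8 shares tested. Hk1 took 26.4% ± 3.90 (SD, n = 4) in GPR35-positive and 58.0% ± 15.8 (SD, n = 4) in GPR35-negative libraries, and Hk2 took 19.8% ± 5.16 and 11.6% ± 1.31. On the RPKM scale, which divides CPM by gene length in kb and so allows genes to be compared, Hk3 was the highest hexokinase in the GPR35-positive group (28.6 ± 7.24 RPKM, against 13.8 ± 2.17 for Hk1 and 10.4 ± 3.15 for Hk2). In the GPR35-negative group Hk1 had the highest mean (15.2 ± 3.01 RPKM), with Hk3 at 8.95 ± 7.16 RPKM and Hk2 at 3.23 ± 1.28 RPKM. In GPR35-negative replicate 1 the share of Hk3 was above that of Hk1 (39.4%). The Hk3 shares of GPR35-negative replicates 1 to 4 ranked in the order of their macrophage marker sums (23780, 11638, 5140 and 7180 CPM). The part of cell content in the shares was not tested.

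Gpi1, which converts glucose 6-phosphate to fructose 6-phosphate, was at 164, 201, 191 and 185 CPM in GPR35-positive libraries and at 120, 128, 114 and 146 CPM in GPR35-negative libraries. The groups did not overlap. It was higher by 0.55 ± 0.12 (SE, edgeR adjusted p = 0.00869), which no longer passed with replicate 3 left out (edgeR adjusted p = 0.0764) or with library size scaling (0.26, edgeR adjusted p = 0.14). Phosphofructokinase 1, the committed step of glycolysis, has a liver, a muscle and a platelet isoenzyme, and none of them passed. Pfkl was at 92.1 ± 5.57 against 76.9 ± 5.66 CPM (SD, n = 4; 0.26 ± 0.11, edgeR adjusted p = 0.0821) with no overlap between the groups. Pfkp had 102 ± 7.82 against 95.2 ± 12.9 CPM (0.11 ± 0.13, edgeR adjusted p = 0.548), and Pfkm at 7.51 ± 1.82 against 10.1 ± 7.63 CPM (-0.43 ± 0.53, edgeR adjusted p = 0.551). Reads of Pfkp cannot be told apart from those of Pitrm1, which overlaps its exons on the other strand over 748 bases.

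The PFKFB enzymes make and break fructose 2,6-bisphosphate, the strongest activator of phosphofructokinase 1, and 2 of the 3 were higher. Pfkfb3, the isoenzyme with the strongest kinase activity, was at 159, 107, 111 and 108 CPM in GPR35-positive libraries and at 44, 18.5, 15.1 and 15.2 CPM in GPR35-negative libraries. The groups were far apart, with replicate 1 highest in both. It was higher by 2.38 ± 0.37 (SE, edgeR adjusted p = 0.00159). Pfkfb4 was at 162, 151, 143 and 158 CPM in GPR35-positive libraries and at 61.6, 35.2, 14.4 and 30.5 CPM in GPR35-negative libraries, and again there was no overlap. Pfkfb4 was higher by 2.11 ± 0.37 (SE, edgeR adjusted p = 0.00277). For Hk2, Hk3, Pfkfb3 and Pfkfb4, the highest GPR35-negative library was replicate 1, which had the highest macrophage marker sum of its group (23780 CPM). The macrophage marker sums of GPR35-negative replicates 1 to 4 were 23780, 11638, 5140 and 7180 CPM. Hk3, Pfkfb3 and Pfkfb4 ranked these libraries in the same order, with replicates 3 and 4 nearly equal for Pfkfb3, and Hk2 did not. Over all members, GPR35-negative replicate 1 was the highest of its group for 6 of 44 (13.6%), against 26.6% of all genes tested. The part of macrophage marker content in these values was not tested. Pfkfb2 was at 10.0 ± 1.71 against 10.0 ± 2.45 CPM (SD, n = 4; 0.00 ± 0.25, edgeR adjusted p = 0.994). Its share of the PFKFB total was 1.19% to 1.77% in GPR35-positive and 3.11% to 13.2% in GPR35-negative libraries. The share of Pfkfb3 was 32.7% ± 3.61 against 27.6% ± 5.99 (SD, n = 4; exact permutation p = 0.229, adjusted 0.305).

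**Figure D2:**
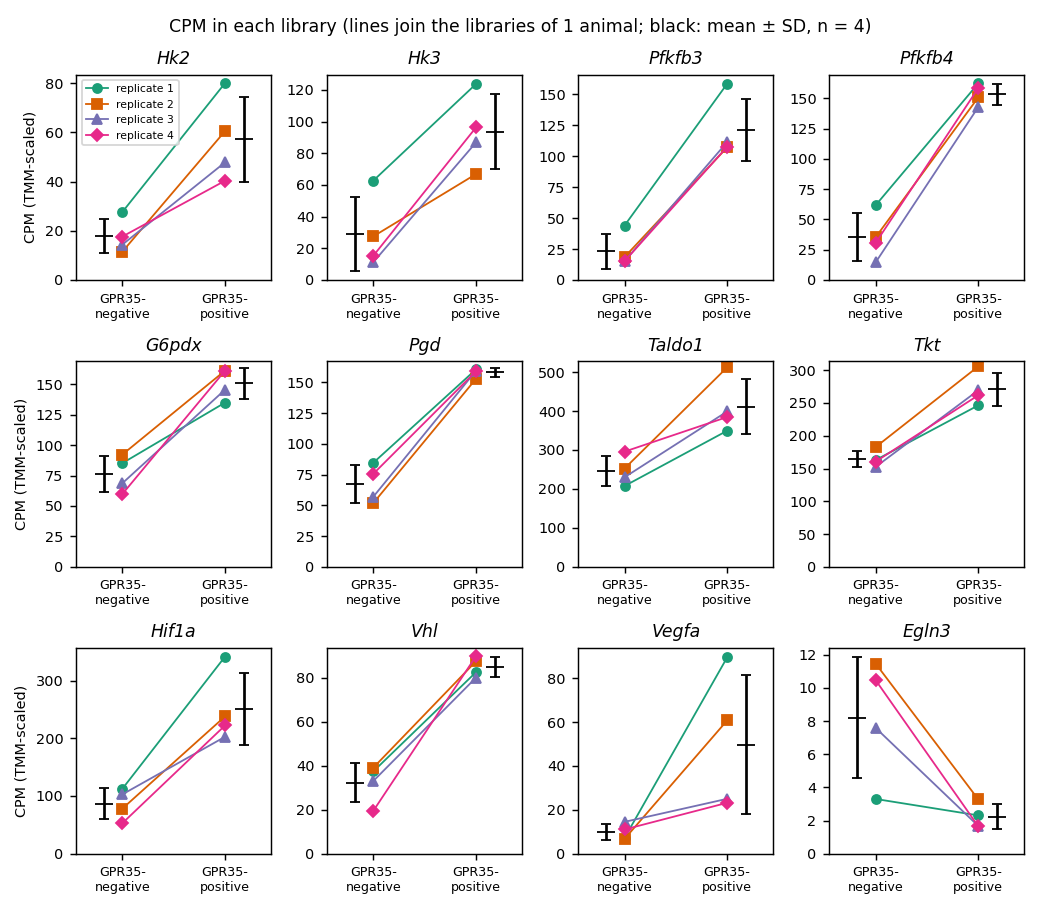
CPM of 12 of the genes in each library (vertical axis, from 0), with lines joining the GPR35-positive and GPR35-negative libraries of 1 animal and bars for mean ± SD (n = 4). Hk2, Hk3, Pfkfb3, Pfkfb4, G6pdx, Pgd, Taldo1, Tkt, Hif1a, Vhl and Vegfa are higher in every GPR35-positive library than in any GPR35-negative library and Egln3 is lower; scaled to macrophage markers, the direction of all of these reverses except for Pfkfb3, Pfkfb4 and Egln3.

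From aldolase to pyruvate kinase, most of the genes did not pass. Aldoa, the main aldolase, was at 422 ± 21.7 against 383 ± 53.9 CPM (SD, n = 4; 0.14 ± 0.14, edgeR adjusted p = 0.448). The brain-type isoenzyme Aldoc was at 18.2, 19.4, 22.1 and 28.2 CPM in GPR35-positive libraries and at 11.5, 8.26, 16.2 and 12.8 CPM in GPR35-negative libraries, with no overlap. Aldoc was higher by 0.85 ± 0.24 (SE, edgeR adjusted p = 0.0234). It no longer passed with replicate 1 (edgeR adjusted p = 0.0584) or 4 (0.109) left out, with only the GPR35-positive library of replicate 3 (0.0528) or 4 (0.0761) left out, or with library size scaling (0.55, edgeR adjusted p = 0.122). Aldoc held 2.77% to 3.90% of the aldolase total in GPR35-positive libraries and 1.34% to 2.47% in GPR35-negative libraries (exact permutation p = 0.0286, adjusted 0.114). Tpi1, triose phosphate isomerase, had 207 ± 23.3 against 192 ± 30.4 CPM (0.11 ± 0.15, edgeR adjusted p = 0.575), and Pgam1, phosphoglycerate mutase, at 39.5 ± 2.18 against 34.4 ± 3.03 CPM (0.20 ± 0.12, edgeR adjusted p = 0.219). Pkm, the pyruvate kinase that ends the pathway, had the highest mean per kb of the 20 glycolytic genes (257 ± 12.6 RPKM in the GPR35-positive group) and stood at 667 ± 32.7 against 605 ± 75.3 CPM (0.14 ± 0.13, edgeR adjusted p = 0.426). Counts per gene do not separate its M1 and M2 splice forms.

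Gapdh needs care as a reference. It was at 20.8 ± 2.0 CPM in GPR35-positive and 20.3 ± 3.03 CPM in GPR35-negative libraries (SD, n = 4; 0.04 ± 0.17, edgeR adjusted p = 0.885), which per kb was 13.9 ± 1.33 RPKM in the GPR35-positive group. The neighbouring steps there stood at 130 ± 14.6 RPKM for Tpi1, 20.7 ± 1.15 RPKM for Pgk1 and 21.6 ± 1.19 RPKM for Pgam1. In the GENCODE annotation, 72 other loci match at least 50% of its coding sequence at 95% identity or more, of which 70 are pseudogenes. The pseudogene Gm12070 carried 407 to 930 counts per library while Gapdh itself carried 370 to 876. How many Gapdh reads were assigned to such copies was not tested.

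Pgk1, the first ATP-yielding enzyme, was the only glycolytic member past the threshold in the lower direction, while Eno2 and Hk1 were also lower in 4 of 4 animals without passing. It was at 36.8, 41.0, 36.7 and 36.9 CPM in GPR35-positive libraries and at 39.2, 53.5, 54.6 and 62.2 CPM in GPR35-negative libraries. It was lower in 4 of 4 animals, although GPR35-negative replicate 1 lay under GPR35-positive replicate 2. It was lower by -0.47 ± 0.15 (SE, edgeR adjusted p = 0.0399). The call ended with the animal as a block (-0.45, edgeR adjusted p = 0.0583), without replicate 2 (0.111), 3 (0.177) or 4 (0.17), and without any single library other than GPR35-negative replicate 1 (edgeR adjusted p of 0.0601 to 0.0989). For Pgk1, 2 pseudogenes match its coding sequence, so its reads may be split. In all, 10 of the 44 members have such near-identical copies. Beside Gapdh, Pgk1 and Eno1 these are Gpi1, Pgam1, Pkm, Ldha, Ldhb, Pdhb and Bnip3, and the same limit holds for each.

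Eno1, the enolase of most tissues, was at 233, 283, 242 and 230 CPM in GPR35-positive libraries and at 148, 136, 154 and 198 CPM in GPR35-negative libraries, without overlap. Eno1 was higher by 0.63 ± 0.15 (SE, edgeR adjusted p = 0.0102), which did not hold with replicate 3 left out (edgeR adjusted p = 0.0649) or with library size scaling (0.34, edgeR adjusted p = 0.117). The near-identical copy Eno1b was counted at a fixed ratio to Eno1 in all 8 libraries (0.863 to 0.873 Eno1 counts per Eno1b count), so the level of Eno1 is uncertain. Eno2, the neuronal isoenzyme, was at 1.05, 1.10, 2.10 and 1.56 CPM against 2.23, 3.92, 4.92 and 3.16 CPM, with every GPR35-positive library under every GPR35-negative library. It did not pass (-1.29 ± 0.47, edgeR adjusted p = 0.0573), but passed with library size scaling (edgeR adjusted p = 0.0296), DESeq2 (0.00833), limma voom (0.0301) and without GPR35-negative replicate 1 (0.0474). Eno3, the muscle isoenzyme, was at 12.3 ± 6.05 against 7.72 ± 2.56 CPM (SD, n = 4; 0.68 ± 0.45, edgeR adjusted p = 0.26). Of the total of Eno1, Eno2 and Eno3 per kb, Eno1 held most in every library (94.3% ± 2.80 against 93.6% ± 1.95, SD, n = 4, exact permutation p = 0.686). Eno1b, which had more counts than Eno1 in all 8 libraries, was not part of that total.

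**Figure D3:**
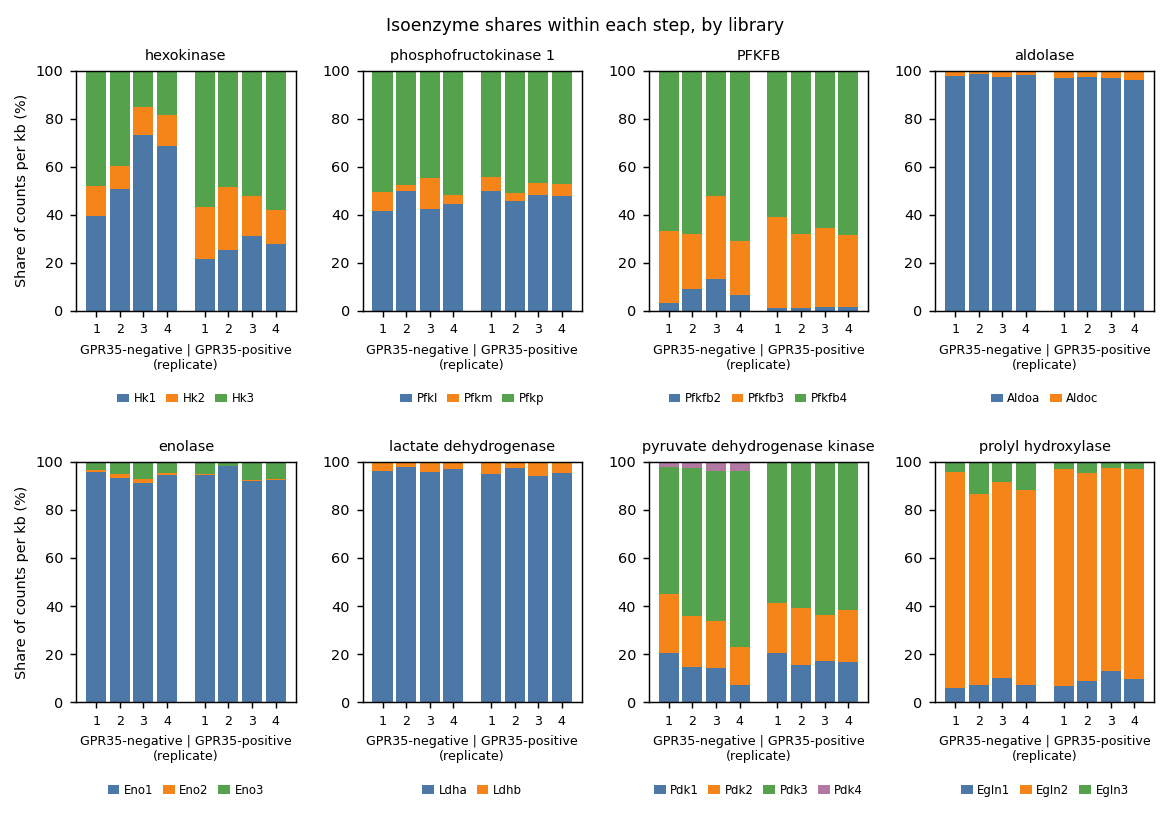
Share of each isoenzyme in the total of its step, in percent of counts per kb of gene length, stacked for each of the 8 libraries in the 8 steps with more than 1 isoenzyme. Hk3 fills 48.5% to 58.0% of the hexokinase bar in GPR35-positive libraries and 15.2% to 48.0% in GPR35-negative libraries, while Aldoa, Ldha and Eno1 fill nearly all of theirs in every library. The enolase bar leaves out Eno1b.

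Of the 10 genes at the branch point of pyruvate, 1 was higher and 1 lower (10% each, against 18.5% and 19.5% of all genes), and 8 did not pass. Ldha, the lactate dehydrogenase subunit that favours lactate, was at 551, 578, 482 and 568 CPM in GPR35-positive and at 353, 403, 455 and 526 CPM in GPR35-negative libraries. It was higher in 4 of 4 animals, but the groups overlapped and it did not pass (0.33 ± 0.15, edgeR adjusted p = 0.12). Ldhb, the subunit that favours pyruvate, was at 17.3 ± 4.42 against 9.80 ± 3.28 CPM (SD, n = 4; 0.81 ± 0.31, edgeR adjusted p = 0.064). Ldhb passed with the animal as a block (0.84, edgeR adjusted p = 0.0227), in DESeq2 (0.0387), and in edgeR with replicate 2 (0.0257), the GPR35-positive library of replicate 2 (0.0345) or the GPR35-negative library of replicate 3 (0.0421) left out. Its share of the lactate dehydrogenase total was 4.52% ± 1.32 against 3.23% ± 0.932 (SD, n = 4; exact permutation p = 0.171, adjusted 0.274).

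Of the pyruvate dehydrogenase kinases, which hold the complex off, only Pdk4 passed. Its counts were 0, 0, 10 and 26 in GPR35-positive and 60, 49, 119 and 138 in GPR35-negative libraries, or 0.221 ± 0.300 against 3.52 ± 1.40 CPM (SD, n = 4). All GPR35-positive libraries lay below all GPR35-negative libraries. It was lower by -3.96 ± 1.30 (SE, edgeR adjusted p = 0.0398). This call ended without any 1 animal (edgeR adjusted p of 0.0609 to 0.147) and without each single library except GPR35-positive replicate 4 and GPR35-negative replicate 1 (0.0571 to 0.087). Pdk1, a HIF target, was at 32.9 ± 4.14 against 23.1 ± 6.64 CPM (0.51 ± 0.24, edgeR adjusted p = 0.114), with no overlap. Pdk2 had 18.0 ± 3.64 against 14.7 ± 1.75 CPM (0.29 ± 0.20, edgeR adjusted p = 0.283), and Pdk3, the kinase with the largest share in all 8 libraries, at 44.7 ± 4.44 against 41.3 ± 10.6 CPM (0.11 ± 0.20, edgeR adjusted p = 0.674).

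Within the complex itself, the structural subunit Pdhx was at 28.6, 32.3, 26.8 and 28.0 CPM against 16.8, 21.1, 18.4 and 18.6 CPM. The groups did not overlap, and it was higher by 0.63 ± 0.14 (SE, edgeR adjusted p = 0.00857). The call ended without replicate 3 (edgeR adjusted p = 0.0523) and with library size scaling (0.34, edgeR adjusted p = 0.0791). The catalytic subunits did not pass. Pdha1 had 94.6 ± 7.99 against 85.9 ± 11.4 CPM (0.14 ± 0.13, edgeR adjusted p = 0.419), Pdhb 82.9 ± 7.56 against 92.9 ± 16.5 CPM (-0.16 ± 0.15, edgeR adjusted p = 0.408) and Dlat, the acetyltransferase, 50 ± 5.80 against 42.7 ± 9.46 CPM (0.23 ± 0.19, edgeR adjusted p = 0.363; all SD, n = 4).

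Of the 4 gene groups, the pentose phosphate pathway had the largest share of higher members (4 of 6, 66.7%, against 18.5% of all genes), with 1 lower (16.7%, against 19.5%) and 1 not past. The median log2 fold change was 0.73. G6pdx, the rate-limiting enzyme and first source of NADPH, was at 135, 161, 146 and 161 CPM in GPR35-positive libraries and at 85.2, 92.3, 68.7 and 59.9 CPM in GPR35-negative libraries. There was no overlap, and it was higher by 0.98 ± 0.16 (SE, edgeR adjusted p = 0.00182). Its exons overlap Ikbkg on the other strand over 278 bases, and reads from the 2 cannot be told apart there. Pgd, the second NADPH-yielding enzyme, was at 161, 153, 160 and 159 CPM against 84.7, 52.0, 57.1 and 75.8 CPM. The GPR35-positive libraries lay within a narrow band (SD of 3.47 CPM), and Pgd was higher by 1.23 ± 0.17 (SE, edgeR adjusted p = 0.000851), the smallest adjusted p of the 44. Pgls, the lactonase between them, was lower in 4 of 4 animals without passing (53.3 ± 6.70 against 67.5 ± 12 CPM; -0.34 ± 0.16, edgeR adjusted p = 0.121). Pgls passed with library size scaling (edgeR adjusted p = 0.012), in limma voom (0.0495) and without GPR35-negative replicate 1 (edgeR 0.0419).

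In the non-oxidative arm, Taldo1, transaldolase, was at 349, 512, 399 and 385 CPM in GPR35-positive libraries and at 207, 252, 230 and 296 CPM in GPR35-negative libraries. It was higher by 0.74 ± 0.17 (SE, edgeR adjusted p = 0.0086), with no overlap. The call ended without replicate 3 (edgeR adjusted p = 0.0582) and with library size scaling (0.45, edgeR adjusted p = 0.0604). Tkt, transketolase, was at 246, 306, 269 and 262 CPM against 163, 183, 152 and 160 CPM, and was higher by 0.72 ± 0.12 (SE, edgeR adjusted p = 0.00223). Replicate 2 was the highest of the GPR35-positive group for both Taldo1 and Tkt. Rpia, which makes ribose 5-phosphate, went the other way, with counts of 21, 25, 20 and 19 in GPR35-positive and 72, 36, 60 and 143 in GPR35-negative libraries (0.572 ± 0.177 against 2.87 ± 1.26 CPM; SD, n = 4). It was lower by -2.32 ± 0.55 (SE, edgeR adjusted p = 0.0102), without overlap. Its call ended without replicate 3 (edgeR adjusted p = 0.0599) or replicate 4 (0.0786).

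Of the 8 hypoxia genes, 3 (37.5%) were higher, against 18.5% of all genes, 1 (12.5%) was lower, against 19.5%, and 4 did not pass, with a median log2 fold change of 0.29. Hif1a, the oxygen-regulated subunit, was at 342, 238, 203 and 222 CPM in GPR35-positive libraries and at 113, 78.2, 103 and 52.9 CPM in GPR35-negative libraries. Every GPR35-positive library was above every GPR35-negative library, and Hif1a was higher by 1.53 ± 0.26 (SE, edgeR adjusted p = 0.00252). The antisense gene Gm15283 overlaps its exons over 191 bases. Vhl, the substrate receptor that leads HIF-1α to degradation, was at 82.7, 87.7, 80.2 and 90.0 CPM against 37.5, 39.2, 33.2 and 19.6 CPM. It was higher by 1.40 ± 0.21 (SE, edgeR adjusted p = 0.00134), with no overlap. Epas1, the other oxygen-regulated subunit (HIF-2α), is named after its values were seen and went the opposite way. It was at 2.80, 1.61, 7.34 and 3.41 CPM in GPR35-positive libraries and at 5.38, 11.4, 51.1 and 42.6 CPM in GPR35-negative libraries. The groups overlapped, since GPR35-positive replicate 3 lay above GPR35-negative replicate 1, but Epas1 was lower in 4 of 4 animals and by -2.86 ± 0.76 in the fit (SE, edgeR adjusted p = 0.0176). It did not pass with the animal of replicate 4 (edgeR adjusted p = 0.104), or the GPR35-positive library of replicate 1 (0.0539) or 4 (0.0522), left out. In GPR35-negative replicates 1 to 4 the endothelial marker Cdh5 was at 1.25, 4.04, 31.3 and 27.5 CPM. Pecam1, another, was at 28.5, 50.8, 280 and 146 CPM, so replicates 3 and 4 were highest for both, as for Epas1. These markers too are named after their values were seen, and their part in the value of Epas1 was not tested.

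None of the 3 prolyl hydroxylases was higher. Egln3, itself a HIF target, was at 2.31, 3.28, 1.67 and 1.66 CPM in GPR35-positive libraries and at 3.30, 11.5, 7.59 and 10.5 CPM in GPR35-negative libraries. The groups touched without overlapping, since GPR35-negative replicate 1 lay close to GPR35-positive replicate 2. Egln3 was lower by -1.88 ± 0.46 (SE, edgeR adjusted p = 0.0123), which did not pass with replicate 3 (edgeR adjusted p = 0.0658) or 4 (0.0814) left out. Egln2 was at 47.1 ± 5.01 against 56.9 ± 1.61 CPM (SD, n = 4; -0.27 ± 0.12, edgeR adjusted p = 0.094), with every GPR35-positive library below. It passed with library size scaling (edgeR adjusted p = 0.00549), with a filter of 5 CPM (0.0382), in DESeq2 (0.0416) and in limma voom (0.0334). Egln1, the main oxygen sensor of most cells, was at 8.51 ± 2.10 against 8.61 ± 2.15 CPM (-0.02 ± 0.28, edgeR adjusted p = 0.969). Egln2 made up 79.7% to 90.2% of the prolyl hydroxylase total per kb in all 8 libraries, and the share of Egln3 was 3.22% ± 0.869 against 9.33% ± 4.02 (SD, n = 4; exact permutation p = 0.0571, adjusted 0.152).

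Vegfa, Bnip3 and Ddit4, also HIF targets, differed in their calls. Vegfa, the vascular growth factor, was at 89.5, 60.8, 25.0 and 23.2 CPM in GPR35-positive libraries and at 7.15, 6.72, 14.5 and 11.0 CPM in GPR35-negative libraries. The GPR35-positive replicates 1 and 2 were well above replicates 3 and 4, and the groups did not overlap. Vegfa was higher by 2.33 ± 0.48 (SE, edgeR adjusted p = 0.00602), but not in limma voom (1.52, adjusted p = 0.12). Bnip3, a mitophagy receptor, was at 29.1 ± 4.09 against 19.2 ± 6.25 CPM (SD, n = 4; 0.59 ± 0.25, edgeR adjusted p = 0.093) and higher in 4 of 4 animals. It passed without GPR35-negative replicate 4 (edgeR adjusted p = 0.0431). Ddit4, an inhibitor of mTORC1, was at 6.32, 2.44, 2.15 and 1.51 CPM against 2.02, 1.66, 5.71 and 6.25 CPM, higher in 2 animals and lower in the other 2 (-0.33 ± 0.63, edgeR adjusted p = 0.7).

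The rest of these pathways, taken from 5 lists of 71 further genes of which 62 were tested, were called at close to the rate of all genes. By edgeR 13 (21.0%) were higher, against 18.5% of all genes, 12 (19.4%) were lower, against 19.5%, and 37 did not pass, with a median log2 fold change of -0.02. Each gene of these lists named here as higher had a negative value under the macrophage marker scaling. The number past the threshold was 14 without replicate 3 and 16 without replicate 4. Among 9 glucose and lactate transport genes, 3 were higher and 3 lower (33.3% each). The main glucose carrier of most cells, Slc2a1, was at 81.6 ± 28.6 against 35.1 ± 8.23 CPM (SD, n = 4) and higher by 1.22 ± 0.28 (SE, edgeR adjusted p = 0.00861). The lactate exporter Slc16a3 was higher by 1.71 ± 0.50 (SE, edgeR adjusted p = 0.026). It did not pass without replicate 1 (edgeR adjusted p = 0.0976) or 3 (0.0862), or without GPR35-positive replicate 1 (0.0657) or 2 (0.0572) or GPR35-negative replicate 3 (0.0564). Slc16a1, another lactate carrier, was lower by -0.84 ± 0.15 (SE, edgeR adjusted p = 0.00313), as was Bsg, the chaperone that brings both carriers to the membrane (-1.03 ± 0.18, edgeR adjusted p = 0.00312). Of the other transport genes, Slc2a8 (0.71, edgeR adjusted p = 0.0181) and Slc2a4 (-2.70, edgeR adjusted p = 0.044) did not pass with replicate 2 (0.0581 and 0.107), 3 (0.066 and 0.0593) or 4 (0.0976 and 0.157) left out. The same held for Slc2a8 with GPR35-positive replicate 1 (0.0538) or 4 (0.058) left out or library size scaling (0.102), and for Slc2a4 with any single library left out except GPR35-positive replicate 3 and GPR35-negative replicate 1 (0.0521 to 0.145).

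Among 18 further glycolytic and glycogen enzymes, 4 (22.2%) were higher and 3 (16.7%) lower, against 18.5% and 19.5% of all genes. Pygl, which releases glucose units from glycogen, was at 50.9 ± 8.69 against 11.7 ± 3.50 CPM (SD, n = 4), higher by 2.13 ± 0.24 (SE, edgeR adjusted p = 0.000333). Galm, which interconverts the forms of hexose sugars, was higher by 1.35 ± 0.23 (SE, edgeR adjusted p = 0.00248), and Adpgk, an ADP-dependent glucokinase, by 0.60 ± 0.13 (SE, edgeR adjusted p = 0.00686). Bpgm, which diverts glycolysis to 2,3-bisphosphoglycerate, was at 11.9 ± 2.40 against 61.8 ± 14.4 CPM and was lower by -2.37 ± 0.23 (SE, edgeR adjusted p = 0.000181). It is abundant in red cells, whose globin genes Hba-a1 (163 against 1266 CPM) and Hbb-bs (84.5 against 682 CPM) also had lower means. The marker list that holds both globins also holds glial and neuronal genes, and its summed level overlapped between the groups. In GPR35-negative replicates 1 to 4 that sum was 432, 2776, 3222 and 1651 CPM, and Bpgm was at 40.7, 72.9, 66.3 and 67.4 CPM. The part of red cells in the value of Bpgm was not tested. Pgm2 (-0.48, edgeR adjusted p = 0.0472) and Gpd2 (-0.50, edgeR adjusted p = 0.0491) lost their calls with the animal as a block (0.065 and 0.0912) and with no count filter (0.0534 and 0.0546). Pgm2 also did not pass with any animal or library left out other than replicate 2 and GPR35-negative replicate 2 (0.0704 to 0.236), nor Gpd2 other than replicate 1 and GPR35-negative replicate 1 (0.0585 to 0.222). Adpgk did not pass with library size scaling (0.31, edgeR adjusted p = 0.0923).

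Of 7 genes tested in the pentose phosphate list, 2 (28.6%) were higher and 1 (14.3%) lower, against 18.5% and 19.5% of all genes. Rpe (0.68 ± 0.15, edgeR adjusted p = 0.00851) and H6pd, the enzyme of the endoplasmic reticulum (0.77 ± 0.23, edgeR adjusted p = 0.0258), were higher. Prps1, which uses ribose 5-phosphate, was lower (-0.74 ± 0.17, edgeR adjusted p = 0.00841). With library size scaling neither Rpe (0.39, edgeR adjusted p = 0.0618) nor H6pd (0.48, edgeR adjusted p = 0.121) passed. Rpe also did not pass without replicate 4 (edgeR adjusted p = 0.0546), H6pd without replicates 2, 3 or 4 (0.0664, 0.0931 and 0.0913) and without GPR35-positive replicate 1 (0.075) or GPR35-negative replicate 3 (0.0579) or 4 (0.0587), and Prps1 without replicate 2 (0.0517) or 3 (0.0611). Mpc2, a subunit of the mitochondrial pyruvate carrier, was the only 1 of 7 genes of pyruvate entry that passed (-0.94 ± 0.22, edgeR adjusted p = 0.00924). Its list thus had 14.3% lower, against 19.5% of all genes, and 0% higher, against 18.5%. Of 21 tested genes of the HIF list, 4 were higher and 4 lower (19.0% each), near the 18.5% and 19.5% of all genes. P4ha1, a collagen prolyl hydroxylase and HIF target, was at 150 ± 9.29 against 63.3 ± 16.3 CPM (SD, n = 4; 1.25 ± 0.19, edgeR adjusted p = 0.00137). Hilpda, a lipid droplet protein, was higher by 1.61 ± 0.35 (SE, edgeR adjusted p = 0.00714), and Car9, a carbonic anhydrase, by 1.73 ± 0.38 (SE, edgeR adjusted p = 0.0073). P4ha2 (-2.53 ± 0.62, edgeR adjusted p = 0.0127), Plod2 (-3.56 ± 0.94, edgeR adjusted p = 0.0174), both collagen-modifying enzymes, and Ero1l, an oxidoreductase of the endoplasmic reticulum (-0.67 ± 0.15, edgeR adjusted p = 0.00832), were lower. The collagen genes Col3a1 (267 against 2506 CPM) and Col1a2 (60.4 against 638 CPM) of the stromal list were lower beside them, and their part in the values of P4ha2 and Plod2 was not tested. Plod2 lost its call without replicates 1, 3 or 4 (edgeR adjusted p of 0.0661, 0.0522 and 0.1) and without GPR35-positive replicate 4 (0.0507), and Ero1l without replicate 3 (0.0619).

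**Figure D4:**
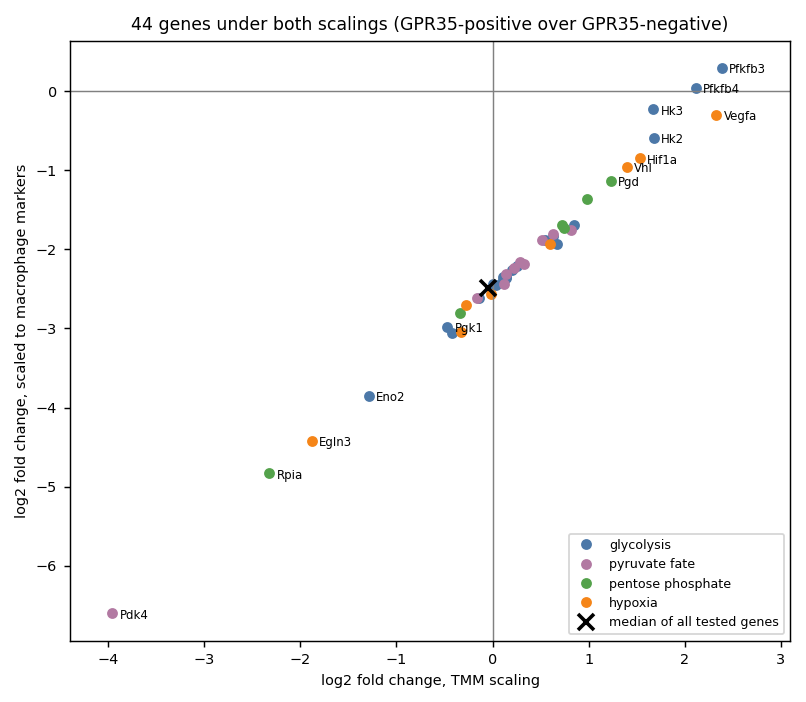
Log2 fold change (positive minus negative) of the 44 genes with TMM scaling (horizontal axis) and with macrophage marker scaling (vertical axis), with a black cross for the medians of all genes tested (-0.05 and -2.49). The genes lie along a band below the diagonal, and only Pfkfb3 and Pfkfb4 remain above 0 on the vertical axis.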

How the data were processed

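Raw read counts per gene for 8 libraries were taken as deposited by the authors; they are whole numbers that sum to different totals. SMART-Seq amplification and Nextera XT libraries, named in the labels' protocols, keep no strand and no molecular identifiers. Reads from a gene and an overlapping or antisense partner cannot be told apart, and PCR copies count as reads. The authors' reads were handled with STAR (version 2.5.2a) and R (version 3.4.2) on mm10, per the submitters' processing notes. Neither the counting tool nor its annotation nor the definition of gene length is given in the sources used here. A gene length column in the deposited table served for RPKM and for isoenzyme shares. Each listed gene reached at least 18 counts in some library, so genes under such a limit are not analysed here. Rows with no symbol (9) held 0.0179% of the counts and were left out.

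Groups came from the labels and animals from the animal identifiers. Counts were tested with edgeR 4.0.16 (R 4.3.3): filterByExpr (minimum count 10, minimum total 15), TMM scaling, robust quasi-likelihood F-test without a block, Benjamini-Hochberg adjustment over all genes tested. SE was taken as the absolute log2 fold change divided by the root of F. CPM use TMM effective library sizes. Isoenzyme shares were compared with 2-sided exact permutation tests over 8 libraries and adjusted over 8 shares. Sign flips over 4 animals cannot go below an exact p of 0.125. Libraries of the same animal pair by the labels; their correlations after removing group means were 0.206, 0.206, 0.431 and 0.0637. Replicates differed by more than sampling noise (smallest chi-square per degree of freedom 26.1). Alternatives used limma 3.58.1 and DESeq2 1.42.0, other scalings and filters, an animal block, and leaving out each animal and library. Nearly identical copies were searched with blastn 2.17.0, exact tests run in Python 3.11.15 (scipy 1.17.1), and the fits were tested on simulated data. Coordinates and promoters are RefSeq GRCm38.p6, matched by gene ID for 44 members.

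All members were named, with, of each other list, up to 3 genes per direction with the smallest p among those past the threshold. Members and lists were chosen with earlier results of these data known. Separate animals make the replicates, but nothing in the sources states whether RNA was pooled.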

Additional observations from a re-analysis of the deposited data

Results flagged for a closer look

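Of 88 groups of 4 libraries (44 genes, each in GPR35-positive and GPR35-negative libraries), 7 held a library that lay far from the other 3 for its range. Chance alone gives such a library in about 1 in 20 groups. Pfkfb3 was at 159 CPM in GPR35-positive replicate 1, against 107 to 111 CPM in the others. Pgk1 was at 41.0 CPM in GPR35-positive replicate 2, against 36.7 to 36.9 CPM. Pdk1 was at 13.2 CPM in GPR35-negative replicate 4, against 24.9 to 27.5 CPM, and Dlat was at 28.5 CPM in GPR35-negative replicate 2, against 47.3 to 47.6 CPM. Rpia was at 0.837 CPM in GPR35-positive replicate 2, against 0.463 to 0.499 CPM, and at 4.75 CPM in GPR35-negative replicate 4, against 2.14 to 2.40 CPM. Egln2 was at 54.5 CPM in GPR35-negative replicate 2, against 57.5 to 58.0 CPM.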

How the results depend on the processing

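The number of higher members moved by at most 1.5 times under the animal block, RLE scaling, library size scaling, both count filters, DESeq2 and limma voom. With the replicate block, which pairs the libraries of each animal, 16 members were higher and 3 lower. Among the 44 members it ended the call of Pgk1 (-0.45, edgeR adjusted p = 0.0583) and added a call for Ldhb (0.84, edgeR adjusted p = 0.0227); among the named genes of the other lists it ended those of Pgm2 (-0.46) and Gpd2 (-0.47), and it changed no other call of a named gene. The number of lower members was 8 with library size alone, 7 in limma voom and 2 with at least 5 CPM in 4 libraries, which fitted only 39 members. Over all genes, 4193, 3295 and 2564 were lower in turn, the last of 10800 genes tested. The log2 fold change turned negative for Pfkfb2 in DESeq2 (-0.0206) and with RLE scaling (-0.025), and for Pfkfb2 (-0.079) and Gapdh (-0.047) with the filter of 5 CPM. With library size alone it turned negative for Pfkl (-0.034), Pfkp (-0.19), Pfkfb2 (-0.28), Aldoa (-0.15), Tpi1 (-0.19), Gapdh (-0.25), Pgam1 (-0.093), Pkm (-0.15), Pdk2 (-0.0077), Pdk3 (-0.18), Pdha1 (-0.15) and Dlat (-0.071). With the macrophage marker scaling 0 members were higher and 37 lower, or 0 and 36 with the replicate block added, and 51 and 49 of the other pathway genes passed. The log2 fold changes that reversed there follow, first without and then with the block. Among the glycolytic genes they were Hk2 -0.59 and -0.51, Hk3 -0.23 and -0.25, Gpi1 -1.89 and -1.68, Pfkl -2.21 and -1.98, Pfkp -2.34 and -2.11, Pfkfb2 -2.44 and -2.23, Aldoa -2.36 and -2.09, Aldoc -1.69 and -1.34, Tpi1 -2.39 and -2.11, Gapdh -2.45 and -2.19, Pgam1 -2.26 and -2.03, Eno1 -1.84 and -1.58, Eno3 -1.94 and -1.73, and Pkm -2.35 and -2.09. Among the genes of pyruvate use they were Ldha -2.18 and -1.90, Ldhb -1.76 and -1.40, Pdk1 -1.89 and -1.65, Pdk2 -2.16 and -1.94, Pdk3 -2.44 and -2.10, Pdha1 -2.31 and -2.07, Dlat -2.24 and -1.96, and Pdhx -1.81 and -1.61. Among the pentose phosphate and hypoxia genes they were G6pdx -1.37 and -1.23, Pgd -1.13 and -0.96, Taldo1 -1.73 and -1.49, Tkt -1.69 and -1.51, Hif1a -0.85 and -0.65, Vhl -0.96 and -0.77, Vegfa -0.30 and -0.11, and Bnip3 -1.94 and -1.57. Among the other lists they were Slc2a1 -1.21 and -1.05, Slc2a8 -1.62 and -1.49, Slc16a3 -0.60 and -0.23, P4ha1 -1.06 and -0.94, Hilpda -0.81 and -0.66, Car9 -0.57 and -0.36, Pygl -0.43 and -0.075, Galm -1.09 and -0.86, Adpgk -1.86 and -1.65, Rpe -1.80 and -1.53, and H6pd -1.57 and -1.41. With single animals or libraries left out, members lower ranged from 0 to 6 and other pathway genes past the threshold from 14 to 30. The log2 fold change of Ddit4 ranged from -1.16 to 0.22, of Egln1 from -0.18 to 0.16, of Gapdh from -0.063 to 0.13, of Pdk3 from -0.041 to 0.24, of Pfkfb2 from -0.15 to 0.33 and of Pfkm from -0.67 to 0.16, none of them past the threshold with all libraries, and the share difference of Eno1 from -0.756 to 1.65 percentage points. The alternatives for the other lists were added after the data were seen. The causes of these changes were not tested. Depth limits the genes of low count, such as Pdk4 and Rpia, more than the others, and 4 libraries against 4 set the smallest exact p.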

Other observations

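Which animal gave the highest library of the GPR35-positive group was counted by gene group. GPR35-positive replicate 1 was the highest of its group for 5 of the 8 hypoxia members (62.5%), against 30.5% of all genes tested, and for 8 of the 21 tested genes of the HIF list (38.1%). GPR35-positive replicate 2 was the highest for 4 of the 6 pentose phosphate members (Pgls, Taldo1, Tkt and Rpia; 66.7%), for 5 of the 10 genes of pyruvate use (50%) and for 18 of all 44 members (40.9%), against 26.2% of all genes. These counts were chosen after the values were seen and were not tested.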
